A study of Homo sapiens with 12 samples.

Results

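The 36 genes described here encode enzymes of the tricarboxylic acid (TCA) cycle, of the aspartate, malate and glutamine reactions that feed it, and of mitochondrial fatty acid oxidation. They were taken by name from a list of these pathways, with no threshold on a measured value, and all 36 were found among the 25369 genes of the count table. By role, 14 were TCA cycle genes, 9 were genes of the shuttles, malic enzymes and glutamine reactions, and 13 were fatty acid oxidation genes. mRNA was measured by strand-specific poly(A)+ RNA-seq in 3 human cancer cell lines, RKO (colon carcinoma by its label), A549 (lung adenocarcinoma) and H460 (lung large cell carcinoma). Each line was kept in normoxia or moved for 24 h to hypoxia, a gas mix with 1% O2, and with 5% CO2 and N2 at 94%, with 2 independent biological replicates in each of the 6 groups and 12 libraries in all. RKO and A549 cells grew in DMEM and H460 cells in RPMI, both with 10% serum and 1% antibiotic-antimycotic, so line and medium cannot be told apart for H460. No gene was altered in any group. As each group is a line in culture, the values describe 1 line each and not a tumor type.

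The TCA cycle burns acetyl-CoA to CO2 in the mitochondrial matrix and hands the electrons to the respiratory chain, which needs oxygen. Fatty acid oxidation shortens acyl-CoA chains step by step, makes acetyl-CoA for the cycle, and passes electrons to the same chain through a flavoprotein relay. Glutamine, turned into glutamate and then 2-oxoglutarate, refills the cycle, and the malate-aspartate shuttle carries reducing power between cytosol and matrix. In hypoxia, cells are known to send less pyruvate into the cycle and to rely more on glycolysis.

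The libraries held 27350424 to 41757584 counts each. The hypoxia markers CA9 (a carbonic anhydrase), NDRG1, PDK1 (a kinase that blocks pyruvate dehydrogenase) and LDHA were called higher in hypoxia in all 3 lines, with log2 fold changes of 4.45, 5.65 and 6.81 for CA9 in RKO, A549 and H460. The labels were checked against epithelial and tissue markers. In normoxic RKO, A549 and H460 cells the keratin gene KRT18 was at 177, 1129 and 508 CPM (counts scaled to a common library total) and KRT8 at 8.17, 1615 and 744. The epithelial surface genes EPCAM and CDH1 were at 4.74 and 0.0782 CPM in RKO, 16.3 and 68.0 in A549 and both at 0.48 in H460, so CDH1 was near 0 in RKO and low in H460. RKO held the intestinal factor CDX2 at 15.3 CPM, but CDH17 at 0. The intestinal genes CDX1, CDX2, VIL1, KRT20 and CDH17 summed to 15.1 and 15.5 CPM in the normoxic RKO libraries. CDX2 made up nearly all of that sum, and the others were near 0. The lung marker NAPSA was at 3.58 CPM in A549 and 0.55 in H460, and NKX2-1 was at 0.0732 and 0.0355, so the defining lung markers were low or near 0. The leukocyte gene PTPRC and the endothelial gene PECAM1 stayed under 0.1 CPM in every group. The immune marker genes checked, PTPRC among them, summed to 0.027 and 0.05 CPM in the normoxic RKO libraries. Their sum was 10.024 and 6.377 CPM in normoxic A549 cells and 12.98 and 10.79 in normoxic H460 cells. Immune markers other than PTPRC were thus counted in A549 and H460, and the source of these counts was not tested. The scaling factors of the 2 H460 hypoxia libraries, 0.786 and 0.829, lay below those of all other libraries (0.963 to 1.12), so the H460 calls that depend on this scaling are named with the results.

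The first question was which of these mRNAs changed with oxygen in each line. A gene was tested where it passed 0.5 CPM in at least 2 of the 4 libraries of the line. It was called where the adjusted p was under 0.1 and the fold change over 1.5. In RKO cells 34 of the 36 members were tested, 4 rose (11.8%) and 6 fell (17.6%), against 18.8% and 15.1% of all 12817 genes tested. In A549 cells 35 were tested, 1 rose (2.86%) and 0 fell, against 2.22% and 0.456% of 14251 genes. The all-gene shares in A549 depended on the fit. They were 8.34% and 5.07% with the replicate number as a block, 4.27% and 1.85% with DESeq2, and 7.7% and 5.34% without A549 hypoxia replicate 1, while 1 member rose and 1, GOT1, fell in each of these. 2 members were below 0 at an unadjusted p under 0.05 in A549. In H460 cells 34 were tested, 3 rose (8.82%) and 8 fell (23.5%), against 24.6% and 27.3% of 14080 genes. With raw library size in place of the scaling factors, H460 had 0 members higher and 20 lower, and over all genes 2075 higher (14.7%) and 5758 lower (40.9%) in place of 3467 and 3837. The 8 lower members were called lower there too. The calls of ACADVL, IDH3G and SUCLG2 were lost, and 12 members were called lower that were not called with the scaling, namely IDH3B, DLD, SUCLG1, MDH2, MDH1, ME2, ME3, CPT1A, ECHS1, HADH, ETFA and ETFB. Unscaled log2 fold changes of these 12 in H460 ranged from -0.89 for CPT1A to -0.59 for ETFA. That setting moved the median log2 fold change of all H460 genes from -0.04 to -0.39, and the median of the members moved with it, from -0.27 to -0.62. Less mRNA per cell and fewer cells that make the mRNA cannot be told apart in these bulk libraries.

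The log2 fold changes of the members had a median of -0.14 in RKO, -0.06 in A549 and -0.27 in H460, beside 0.01, -0.01 and -0.04 over all genes tested. Without RKO normoxia replicate 2 the RKO median was -0.27. In A549 the median was 0.002 without normoxia replicate 1 and 0.015 without hypoxia replicate 2, so its sign rests on single libraries. Of the 33 members tested in every line, 14 were below 0 in all 3 lines and 6 were above 0 in all 3. 8 of the 14 were TCA cycle genes, of which 13 were tested in RKO and in H460 and 14 in A549. The shares of all genes with the same sign in all 3 lines were not worked out, so these sign counts have no background here. 3 of the 33 (9.09%) fell in at least 2 lines, beside 9.37% of the 11873 genes tested in all lines, and 2 (6.06%) rose in at least 2 lines, beside 9.22%. 0 members were called in opposite directions in 2 lines, beside 2.86% of all genes. 18 of the 33 (54.5%) were called in no line, beside 37.2% of all genes. The shares called in 2 lines or in opposite directions lay near or below those of all genes, and the share called in no line lay above it.

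**Figure D1:**
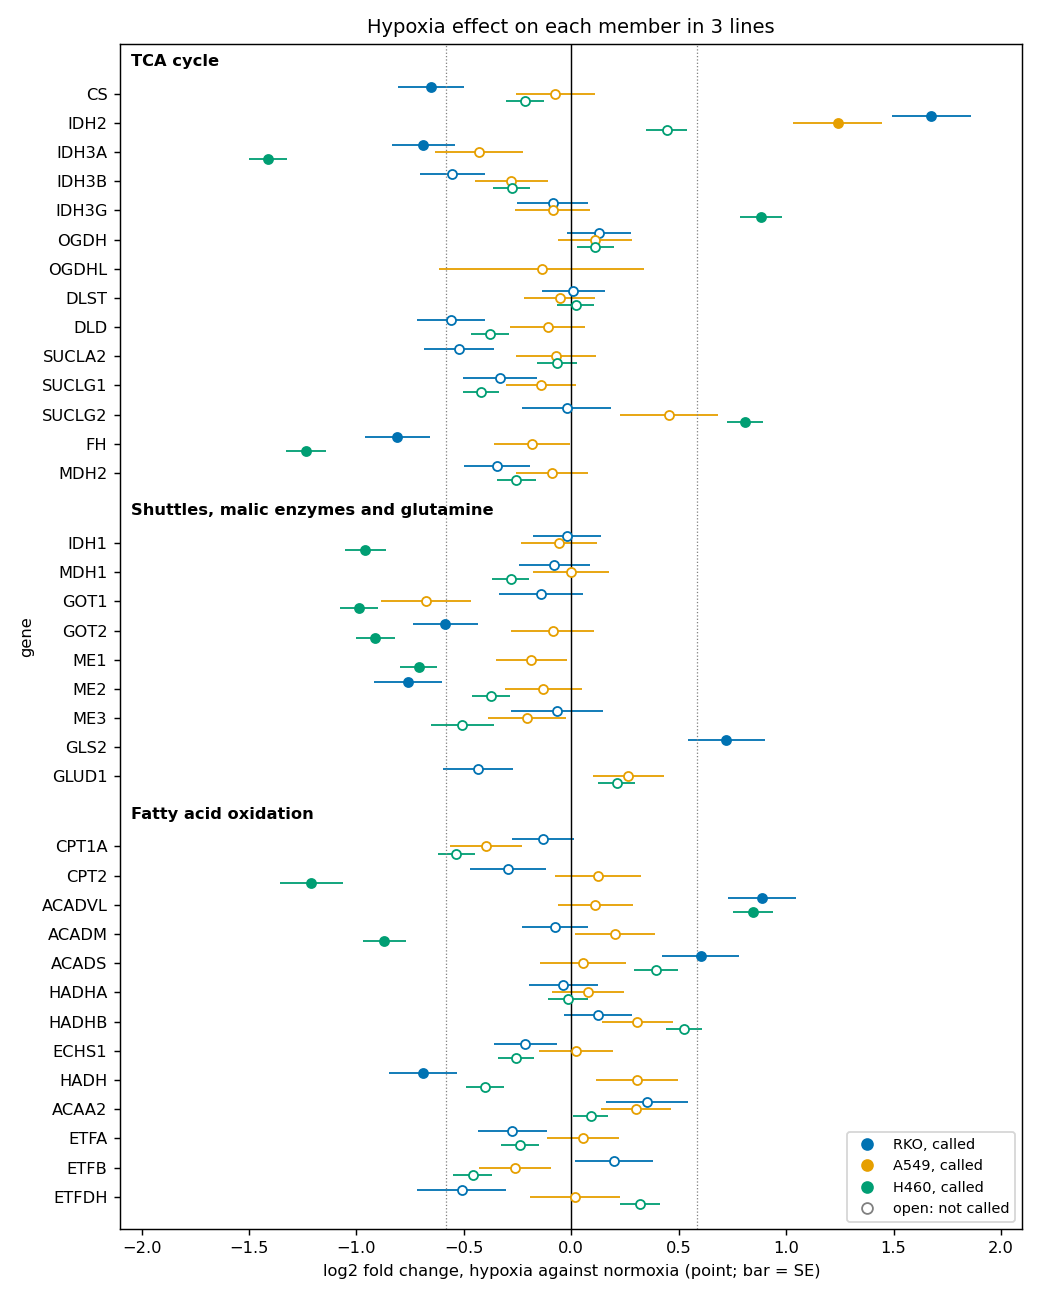
The log2 fold change of each member in hypoxia against normoxia (x axis) is plotted for RKO, A549 and H460 (colors), with bars of 1 SE, members in rows by role, and dotted lines at a fold change of 1.5. Filled points passed the call and open points did not; IDH3A, FH and GOT2 have filled points on the left in RKO and H460, IDH2 has them on the right in RKO and A549, and ACADVL has them on the right in RKO and H460.

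IDH3A, FH and GOT2 fell in both RKO and H460 and were called in no direction in A549. IDH3A encodes the catalytic subunit of the NAD-dependent isocitrate dehydrogenase, which makes 2-oxoglutarate in the cycle (chr15:78441719-78462884, plus strand, GRCh37). Its level in RKO was 118 and 109 CPM in the normoxia libraries and 72.7 and 74.2 in the hypoxia libraries. In A549 it was 77.9 and 66.7 in normoxia against 62.1 and 46.1 in hypoxia. In H460 it was 95.4 and 96.5 against 35.4 and 37.5. The groups did not overlap in any line, and H460 in hypoxia held the lowest values of the 6 groups. The log2 fold change of IDH3A was -0.69 ± 0.15 (SE) in RKO (adjusted p = 0.00439), -0.43 ± 0.20 in A549 (adjusted p = 0.334) and -1.41 ± 0.09 in H460 (adjusted p = 7.1e-08).

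FH encodes fumarase, which turns fumarate into malate (chr1:241660857-241683085, minus strand). FH stood at 165 and 141 CPM in normoxic and 93.0 and 88.9 in hypoxic RKO cells. In A549 the values were 115 and 105 against 106 and 88.7, and these groups overlapped. In H460 they were 197 and 184 against 77.7 and 85.7. The log2 fold change was -0.81 ± 0.15 in RKO (adjusted p = 0.00242), -0.18 ± 0.18 in A549 (adjusted p = 0.647) and -1.24 ± 0.09 in H460 (adjusted p = 2.6e-07). GOT2 encodes the mitochondrial aspartate aminotransferase, the matrix arm of the malate-aspartate shuttle (chr16:58741035-58768261, minus strand). GOT2 was at 322 and 293 CPM in normoxia and 220 and 207 in hypoxia in RKO. In A549 it was at 256 and 220 against 252 and 201, with overlap. In H460 it was at 323 and 297 against 162 and 171. The GOT2 fold change in RKO was small, at -0.59 ± 0.15 (adjusted p = 0.0115). Leaving out RKO normoxia replicate 1 gave -0.51, leaving out hypoxia replicate 1 gave -0.58 and leaving out hypoxia replicate 2 gave -0.53, each under the fold limit. In H460 GOT2 fell by 0.91 ± 0.09 on the log2 scale (adjusted p = 2.8e-06).

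As these genes moved together in 2 lines, the 250 bases before the outermost start of each are shown, beside those of ACADVL, which rose in the same 2 lines. The core motif of the hypoxia-inducible factors is known as ACGTG or GCGTG. The sequences are from RefSeq on GRCh38.p14, written 5′ to 3′ on the strand of the gene, with each ACGTG and GCGTG in capitals on either strand (CACGT and CACGC where the motif lies on the other strand). IDH3A is at chr15:78149112-78149361 (plus strand), FH at chr1:241519756-241520005 (minus), GOT2 at chr16:58734317-58734566 (minus) and ACADVL at chr17:7216875-7217124 (plus).
IDH3A: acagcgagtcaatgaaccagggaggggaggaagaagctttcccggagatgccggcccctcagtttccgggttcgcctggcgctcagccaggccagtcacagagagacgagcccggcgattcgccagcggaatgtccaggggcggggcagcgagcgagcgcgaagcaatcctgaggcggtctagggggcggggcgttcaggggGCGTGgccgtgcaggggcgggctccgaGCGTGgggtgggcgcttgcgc
FH: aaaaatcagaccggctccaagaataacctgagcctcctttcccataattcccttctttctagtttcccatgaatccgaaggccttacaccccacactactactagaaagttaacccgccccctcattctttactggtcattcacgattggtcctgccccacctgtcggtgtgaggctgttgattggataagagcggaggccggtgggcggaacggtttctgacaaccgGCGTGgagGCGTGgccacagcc
GOT2: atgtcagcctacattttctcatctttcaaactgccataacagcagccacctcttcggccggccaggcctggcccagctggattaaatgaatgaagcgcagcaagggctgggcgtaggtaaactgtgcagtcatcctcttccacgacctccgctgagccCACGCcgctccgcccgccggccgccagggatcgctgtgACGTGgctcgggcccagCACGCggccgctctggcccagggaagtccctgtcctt
ACADVL: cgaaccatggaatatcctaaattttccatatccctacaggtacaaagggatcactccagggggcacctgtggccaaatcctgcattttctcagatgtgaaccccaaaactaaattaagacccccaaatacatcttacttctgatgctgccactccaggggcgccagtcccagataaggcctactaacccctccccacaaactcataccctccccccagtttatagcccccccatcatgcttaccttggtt
IDH3A held 2 GCGTG, FH held 2 GCGTG, and GOT2 held 1 ACGTG and 2 GCGTG. ACADVL, which rose, held 0 of either in this window. Only the window before the outermost start of each gene was searched. Other starts of ACADVL or of the other genes were not covered, so a lack of the motif there is not shown. Of the 33 members with an entry at the outer start of the gene, 17 (51.5%) held either motif, beside 50.1% of the 13745 such windows of genes in the count table and 43.1% of all 24985 windows. GCGTG alone was in 17 of the members (51.5%), in 38.8% of the windows of count-table genes and in 31.9% of all, and ACGTG was in 3 members (9.09%), 20.9% and 18.7%. The median GC content was 66.4% in the members' windows, 62.0% in those of count-table genes and 57.6% in all. The share of members with either motif was thus near that of the genes counted here. A match describes the letters only, since binding was not measured in these libraries. The IDH2 entry began 1847 bases inside the gene and was not used, and OGDH and ETFDH are named only.

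IDH2 and ACADVL rose in 2 lines each. IDH2 encodes the mitochondrial NADP-dependent isocitrate dehydrogenase, which can run in either direction between isocitrate and 2-oxoglutarate (chr15:90627211-90645786, minus strand). IDH2 was at 37.0 and 30.04 CPM in normoxic and at 127 and 96.4 in hypoxic RKO cells. In A549 it was at 51.1 and 49.0 against 97.2 and 142. In H460 it was at 28.3 and 27.4 against 39.8 and 36.9. No groups overlapped, and the hypoxia libraries of RKO and A549 stood at more than any normoxia library. The log2 fold change was 1.68 ± 0.18 in RKO (adjusted p = 0.000168), the highest of all members, and 1.24 ± 0.21 in A549 (adjusted p = 0.0251), where IDH2 was the only member called. In H460 it was 0.44 ± 0.10 (adjusted p = 0.00128), which passed the p limit but not the fold limit. Without the scaling factors the H460 value was 0.09 ± 0.10 (adjusted p = 0.409).

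ACADVL encodes very long-chain acyl-CoA dehydrogenase, the first enzyme of the matrix chain-shortening spiral (chr17:7120444-7128586, plus strand). ACADVL stood at 226 and 264 CPM in normoxia and 464 and 481 in hypoxia in RKO. In A549 it was at 645 and 571 against 661 and 666, already above normoxic RKO and H460. In H460 it was at 376 and 402 against 740 and 674. The hypoxic H460 libraries stood above every A549 library, and the hypoxic RKO libraries stayed below them. The log2 fold change was 0.89 ± 0.16 in RKO (adjusted p = 0.00182), 0.11 ± 0.17 in A549 (adjusted p = 0.794) and 0.85 ± 0.09 in H460 (adjusted p = 7.4e-06). Without the scaling factors the H460 value was 0.49 and not called.

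**Figure D2:**
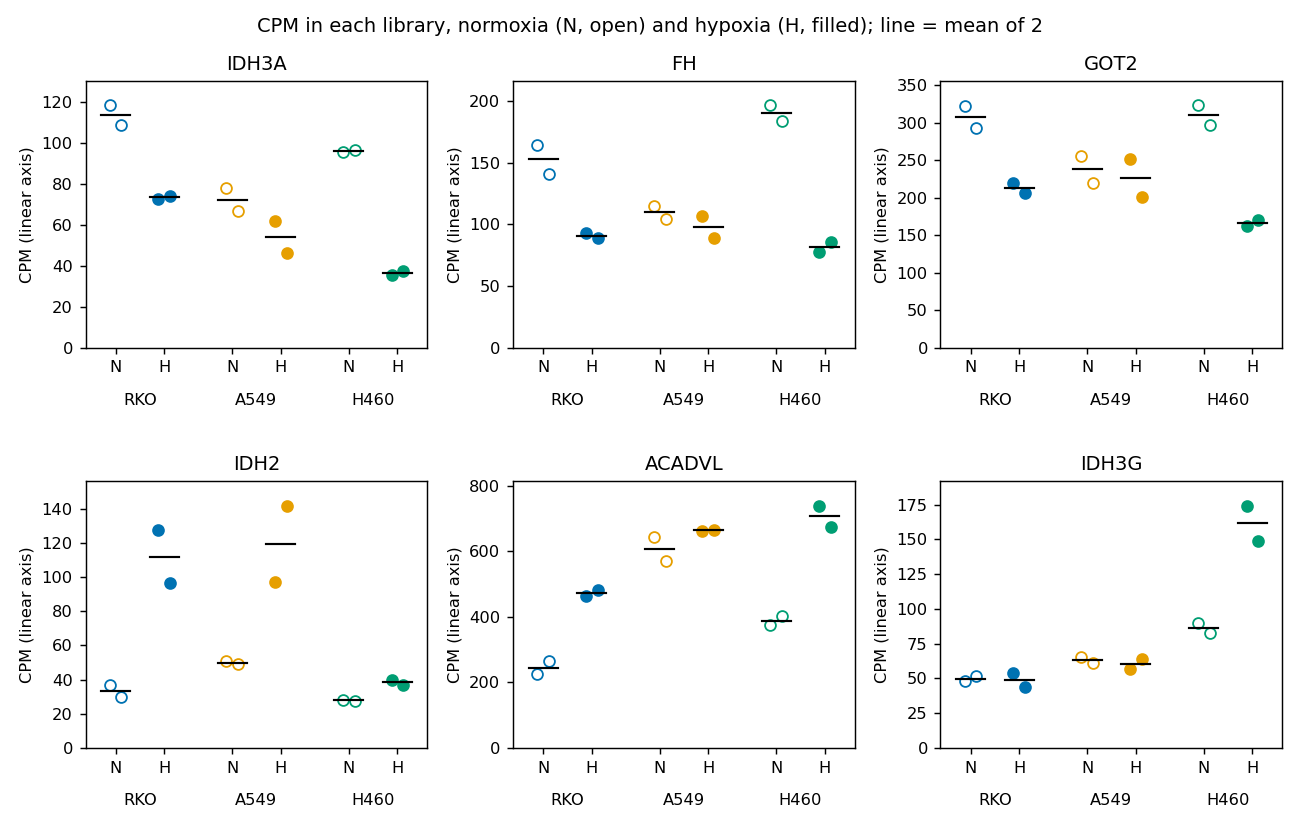
CPM (y axis, linear, from 0) of 6 members is plotted for each library by line, open points for normoxia (N) and filled points for hypoxia (H), with a line at the mean of 2. IDH3A, FH and GOT2 are lower in hypoxia in RKO and H460, IDH2 is higher in hypoxia with the smallest step in H460, ACADVL is higher in RKO and H460, and IDH3G is higher in H460.

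The other TCA cycle genes were called between hypoxia and normoxia in 1 line or in none. CS encodes citrate synthase, the entry step, and fell in RKO by 0.65 ± 0.15 on the log2 scale (adjusted p = 0.00711), from 365 and 390 CPM to 264 and 237. Without RKO hypoxia replicate 2 the CS value was -0.57, under the fold limit. CS was at -0.07 ± 0.18 in A549 and -0.22 ± 0.09 in H460. IDH3G, a regulatory subunit of the same enzyme as IDH3A (chrX:153051221-153059978, minus strand), was the member with the highest called fold change in H460. IDH3G was at 89.9 and 83.0 CPM in normoxic and 174 and 149 in hypoxic H460 cells, a log2 fold change of 0.88 ± 0.10 (adjusted p = 6.3e-06). In RKO IDH3G was at 47.9 and 51.5 against 54.0 and 43.7, and in A549 at 65.5 and 60.8 against 56.6 and 63.7, with overlap in both. IDH3B, the third subunit, was at -0.55 ± 0.15, -0.28 ± 0.17 and -0.28 ± 0.09 in RKO, A549 and H460, and was not called.

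SUCLG2 encodes the GDP-forming subunit of succinyl-CoA ligase, and SUCLA2 the ADP-forming one; both pair with SUCLG1. SUCLG2 rose in H460 by a log2 fold change of 0.81 ± 0.08 (adjusted p = 4.1e-06), from 72.5 and 73.8 CPM to 134 and 126. SUCLA2 was at -0.07 ± 0.09 in H460 and -0.52 ± 0.17 in RKO, and SUCLG1 was at -0.42 ± 0.08 in H460, none of them past the fold limit. Without the scaling factors, IDH3G and SUCLG2 stood at 0.53 and 0.46 in H460 and were not called. The 2-oxoglutarate dehydrogenase parts OGDH and DLST ranged from -0.05 to 0.13 over the 3 lines, while DLD, the shared lipoamide dehydrogenase, was at -0.56 ± 0.16 in RKO and -0.38 ± 0.09 in H460. MDH2, the mitochondrial malate dehydrogenase, was at -0.35 ± 0.15, -0.09 ± 0.17 and -0.26 ± 0.09. OGDHL, a relative of OGDH, had 0 counts in each RKO library and 5 to 24 in the others, and was at -0.14 ± 0.48 in A549, the only line where it was tested.

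Ratios between 2 genes within a library do not depend on how libraries are scaled, and were computed from RPKM (counts scaled by exon length and library total) for pairs chosen after their values were seen, so they carry no test. The ratio of IDH3G to IDH3A was 1.46 and 1.33 in normoxic and 7.61 and 6.13 in hypoxic H460 cells. It was 0.626 and 0.731 against 1.15 and 0.911 in RKO, and 1.30 and 1.41 against 1.41 and 2.14 in A549. The subunits of this enzyme thus changed unequally in H460, whatever the scaling. IDH2 to IDH3A, the NADP-dependent against the NAD-dependent enzyme, went from 0.449 and 0.396 to 2.51 and 1.86 in RKO. The same ratio went from 0.941 and 1.05 to 2.25 and 4.41 in A549 and from 0.427 and 0.408 to 1.61 and 1.42 in H460. This ratio was higher in hypoxia in all 3 lines without overlap. SUCLG2 to SUCLA2 went from 1.497 and 1.57 to 3.03 and 2.63 in H460. In RKO it was 0.861 and 0.787 against 1.32 and 0.995, and in A549 0.805 and 1.15 against 1.18 and 1.66.

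**Figure D3:**
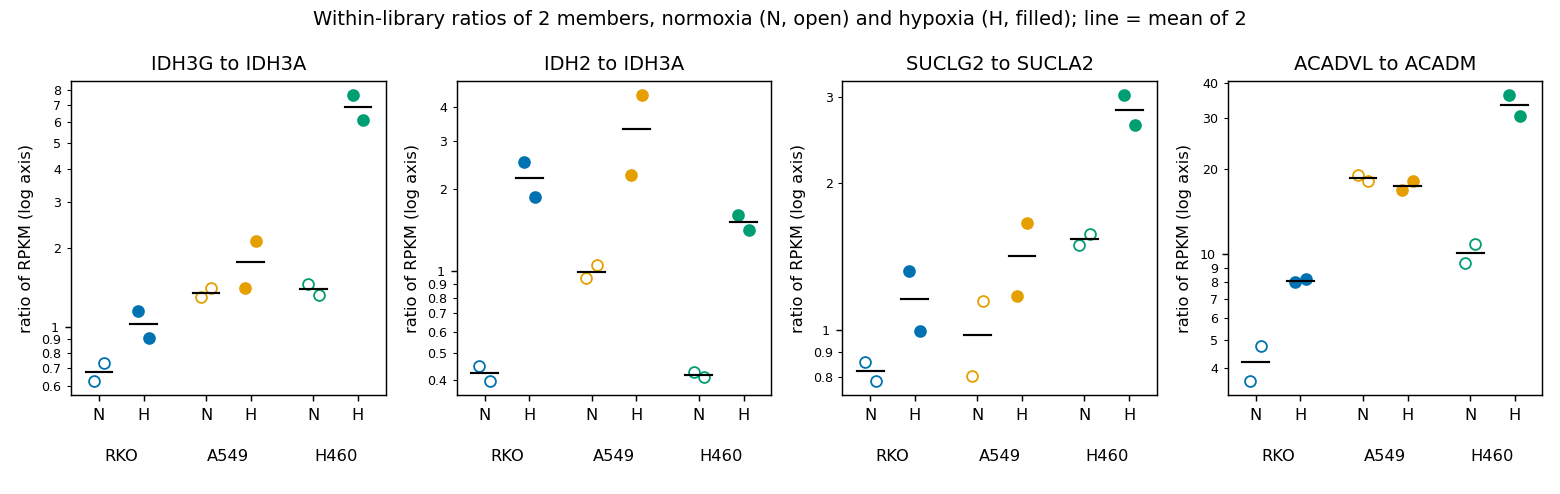
The ratio of RPKM values of 2 members within each library (y axis, log scale) is plotted by line, open points for normoxia (N) and filled points for hypoxia (H), with a line at the mean of 2. IDH2 to IDH3A is higher in hypoxia in all 3 lines, and IDH3G to IDH3A reaches 7.61 in hypoxic H460 cells.

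Among the shuttle, malic enzyme and glutamine genes, 4 of 8 tested fell in H460, 2 of 8 fell and 1 rose in RKO, and 0 of 8 were called in A549. Over all genes 27.3% fell in H460, and 15.1% fell and 18.8% rose in RKO. With library size only, 7 of the 8 were called lower in H460, beside 40.9% of all genes, with MDH1, ME2 and ME3 added. The median of these genes in H460 was -0.61. IDH1, the cytosolic NADP-dependent isocitrate dehydrogenase, was at 539 and 530 CPM in normoxic and 265 and 291 in hypoxic H460 cells, a log2 fold change of -0.96 ± 0.09 (adjusted p = 2.3e-06). The IDH1 value was -0.02 ± 0.16 in RKO and -0.06 ± 0.18 in A549, where its level was 78.3 to 96.6 CPM in every library. GOT1, the cytosolic aspartate aminotransferase, was at 143 and 148 CPM in normoxic and 71.6 and 76.3 in hypoxic H460 cells, a log2 fold change of -0.99 ± 0.09 (adjusted p = 9.6e-07). In A549 GOT1 was at 57.3 and 71.4 CPM against 45.9 and 35.4 and missed the call, at -0.68 ± 0.21 (adjusted p = 0.174). With the replicate number as a block it was called lower there, at -0.68 ± 0.17 (adjusted p = 0.00369). MDH1, the cytosolic malate dehydrogenase of the shuttle, was at -0.08 ± 0.16, 0.00 ± 0.18 and -0.28 ± 0.09 and was not called.

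The malic enzymes, which make pyruvate from malate, differed by line. ME1, the cytosolic form, fell in H460 from 206 and 194 CPM to 122 and 126 (log2 fold change -0.71 ± 0.09, adjusted p = 1.5e-05). ME1 had only 4 and 6 counts in the normoxic and 9 and 9 in the hypoxic RKO libraries and was not tested there. ME2, the mitochondrial NAD-dependent form, fell in RKO from 189 and 158 CPM to 114 and 99.5 (-0.76 ± 0.16, adjusted p = 0.0042), and was at -0.13 ± 0.18 in A549 and -0.37 ± 0.09 in H460. ME3, the mitochondrial NADP-dependent form, was called in no line. GLS2, the liver-type glutaminase, was counted at over 0.5 CPM only in RKO, where it rose from 17.9 and 15.5 CPM to 29.1 and 28.4 (0.72 ± 0.18, adjusted p = 0.00944). A549 had at most 2 counts of GLS2 in a library and H460 4 to 13. GLUD1, glutamate dehydrogenase, was at -0.43 ± 0.16 in RKO, 0.26 ± 0.17 in A549 and 0.21 ± 0.09 in H460, with no call. GLUD2, a near-identical copy of GLUD1, had 0 counts in RKO, at most 1 in an H460 library and 80 to 125 in A549, so few reads were assigned to it. Reads that match both genes may still be lost in the counting, which leaves GLUD1 uncertain.

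Of the 13 fatty acid oxidation genes, 2 rose and 1 fell in RKO, beside 18.8% and 15.1% of all genes, 0 were called in A549, and 1 rose and 2 fell in H460, beside 24.6% and 27.3%. With library size only, 0 rose and 7 fell in H460, beside 14.7% and 40.9% of all genes. ACADVL lost its call there, and CPT1A, ECHS1, HADH, ETFA and ETFB were added as lower. CPT1A and CPT2 load fatty acids onto and off carnitine on the way into the matrix. CPT2 fell in H460 from 22.4 and 22.6 CPM to 8.31 and 11.3, a log2 fold change of -1.21 ± 0.15 (adjusted p = 1.6e-05). CPT1A was at -0.54 ± 0.09 in H460 (adjusted p = 0.000148), just under the fold limit, and at -0.13 ± 0.15 and -0.40 ± 0.17 in RKO and A549. ACADM, the medium-chain dehydrogenase, fell in H460 from 43.6 and 40.2 CPM to 22.2 and 24.0 (-0.87 ± 0.10, adjusted p = 1e-05). ACADS, the short-chain dehydrogenase, rose in RKO from 27.9 and 29.5 CPM to 51.4 and 39.5 (0.60 ± 0.18, adjusted p = 0.0211). The ACADS call was lost without RKO normoxia replicate 1 (0.57, adjusted p = 0.113) and without RKO hypoxia replicate 1 (0.45). The very long-chain and medium-chain dehydrogenases thus changed unequally in H460, and the ratio of ACADVL to ACADM went from 9.37 and 10.8 to 36.1 and 30.4 there. It was 3.61 and 4.78 against 8.003 and 8.20 in RKO, and 18.9 and 18.1 against 16.8 and 18.0 in A549.

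HADH, the short-chain hydroxyacyl-CoA dehydrogenase, fell in RKO from 67.0 and 57.7 CPM to 42.1 and 38.5 (-0.69 ± 0.16, adjusted p = 0.00686). Without RKO normoxia replicate 1 the HADH value was -0.58 and not called. HADHA and HADHB, the subunits of the trifunctional protein, start 21 bases apart on opposite strands of chromosome 2 in GRCh37. HADHA was at -0.04 ± 0.16, 0.08 ± 0.17 and -0.02 ± 0.09 in RKO, A549 and H460, while HADHB was at 0.13 ± 0.16, 0.31 ± 0.17 and 0.52 ± 0.08, with no call. ECHS1 (enoyl-CoA hydratase), ACAA2 (the mitochondrial thiolase), and ETFA, ETFB and ETFDH (the electron-transferring flavoprotein and its dehydrogenase) were called in no line. Their log2 fold changes ranged from -0.51 (ETFDH in RKO) to 0.35 (ACAA2 in RKO).

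Whether the hypoxia effect itself differed between lines was tested in a joint fit of all 12 libraries, at an adjusted p under 0.1 with no fold limit. RKO and A549 differed for 5 of 36 members (13.9%), beside 14.6% of 15595 genes. RKO and H460 differed for 14 (38.9%), beside 37.6%, and A549 and H460 for 11 (30.6%), beside 36% of the same genes. The 3 tests share libraries. With the replicate block the first 2 counts were 12 and 22, but the shares of all genes in these tests were not worked out with the block. ACADVL (difference 0.82 ± 0.19, adjusted p = 0.021) and HADH (-0.95 ± 0.19, adjusted p = 0.00971) separated RKO from A549 and kept the call with any 1 of the 12 libraries left out. The other 3, FH, ME2 and GLUD1, lost it in 9, 8 and 5 of the 12 cases, with adjusted p up to 0.259, 0.269 and 0.183. In RKO against H460, 8 of the 14 were kept in every case, namely IDH1, IDH2, IDH3A, IDH3G, GOT1, CPT2, ACADM and ETFDH. Of these IDH2 differed most, by 1.28 ± 0.27 (adjusted p = 0.00287). With library size only, ETFDH, GLUD1 and SUCLG2 lost the call between RKO and H460. In A549 against H460, 9 of the 11 were kept in every case, with CPT2 the largest at 1.34 ± 0.25 (adjusted p = 0.00166). IDH3A, FH and GOT2, which were called lower in H460 and not in A549, differed between these lines by 0.98 ± 0.21 (adjusted p = 0.00455), 1.05 ± 0.19 (adjusted p = 0.00168) and 0.82 ± 0.20 (adjusted p = 0.00918). IDH3A and GOT2, called in RKO and not in A549, missed this test between RKO and A549, at -0.21 ± 0.21 (adjusted p = 0.585) and -0.45 ± 0.20 (adjusted p = 0.187). With the replicate block GOT2 passed it, at -0.45 ± 0.14 (adjusted p = 0.0455).

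Averaged over the 3 lines in the joint fit, IDH2 rose by 1.15 ± 0.11 on the log2 scale (adjusted p = 1.9e-06) and ACADVL by 0.65 ± 0.08 (adjusted p = 1.6e-05). IDH3A fell by 0.81 ± 0.09 (adjusted p = 5.1e-06) and FH by 0.71 ± 0.08 (adjusted p = 7.1e-06). These 2 higher and 2 lower members are 5.56% each of the 36, beside 14.8% and 11.5% of 15595 genes. All 4 calls held with any 1 library left out, but with library size only the ACADVL call was lost. The average stands beside interactions that were called for all 4 genes in at least 1 pair of lines, so it is not a common value of the lines.

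The levels in normoxia were compared next, per length for genes within a line and by CPM for a gene between lines. In RKO, CS led with a mean of 135 RPKM, followed by GOT2 at 133. In A549 ACADVL led at 255 RPKM, and in H460 IDH1 led at 200 RPKM, against 32.7 and 34.5 in RKO and A549. GLS2 and OGDHL held the lowest 2 places in A549 and H460, and ME1 and OGDHL in RKO. 14 of 36 members (38.9%) differed between normoxic RKO and A549 at an adjusted p under 0.1 and a fold change over 1.5, beside 60.2% of all genes. 14 (38.9%) differed between RKO and H460, beside 61.9%, and 12 (33.3%) between A549 and H460, beside 52.1%. IDH1 was lower in RKO and A549 than in H460, by log2 differences of -2.64 ± 0.15 (adjusted p = 1.2e-09) and -2.56 ± 0.15 (adjusted p = 3.1e-09). For IDH1, RKO and A549 did not differ past the limits, at -0.08.

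GOT1 had the same order, with -1.41 ± 0.19 and -1.17 ± 0.19 against H460 and -0.23 between RKO and A549. ME2 was highest in RKO, by 1.61 ± 0.14 over A549 and 1.25 ± 0.14 over H460. ME3 was highest in A549, by 2.42 ± 0.18 over H460 and stood at -1.66 ± 0.17 in RKO against A549. ETFB was lower in RKO than in A549 (-1.22 ± 0.15) and H460 (-1.40 ± 0.15). ETFDH was higher in H460 than in RKO and A549, which stood at -1.04 ± 0.17 and -1.26 ± 0.17 against it. ACADVL was ordered A549, H460, RKO, with -1.31 ± 0.14 for RKO against A549, -0.67 ± 0.14 for RKO against H460 and 0.65 ± 0.14 for A549 against H460. Leaving out A549 normoxia replicate 1 brought the last value to 0.56, and leaving out RKO normoxia replicate 1 the second to -0.57, both under the fold limit. HADH was lowest in A549, by 1.28 ± 0.14 below RKO and by -1.03 ± 0.14 against H460.

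ME1, GLS2 and OGDHL were near or at 0 in a line. Summed over the 2 normoxia libraries, ME1 had 10 counts in RKO against 8047 in A549 and 12423 in H460, ratios of 753 (95% exact interval of the count ratio, 409 to 1571) and 1545 (840 to 3222). GLS2 had 1291 counts in RKO, 1 in A549 and 24 in H460, so that RKO stood 1379 times above A549 (247 to 54510) and 43.3 times above H460 (28.9 to 67.8). OGDHL had 0 counts in RKO, and A549 and H460 were at least 7.33-fold and 7.05-fold higher against a floor of 3 counts per library. These intervals and floors cover counting error only.

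**Figure D4:**
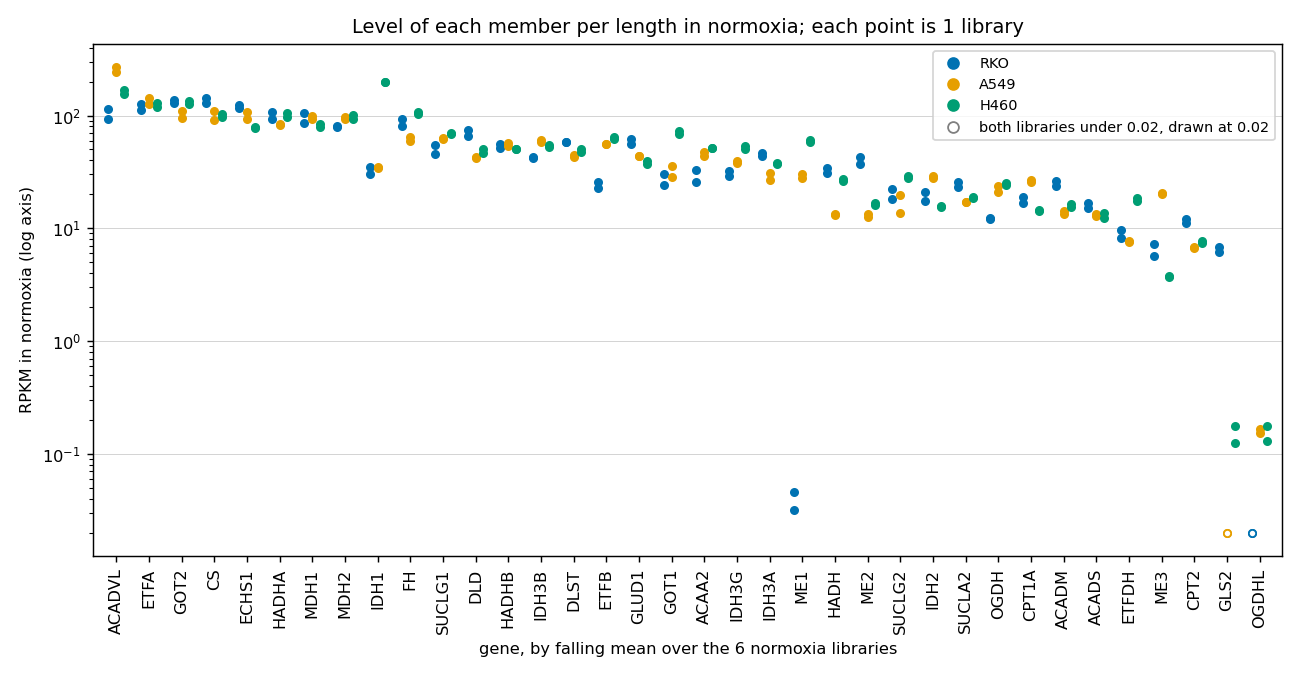
RPKM in normoxia (y axis, log scale) is plotted for the 36 members, ordered by falling mean, with 1 point per library and lines of cells by color. IDH1 is highest in H460 at 200 RPKM, ME1 is under 0.1 RPKM in RKO, and open points mark the normoxia libraries of GLS2 in A549 and of OGDHL in RKO, all under 0.02 and drawn at that value.

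Of 33 other genes of these pathways and their regulators, 4 rose and 5 fell among 30 tested in RKO (13.3% and 16.7%), beside 18.8% and 15.1% of all genes. In A549, 1 rose and 1 fell among 32 (3.12% each), beside 2.22% and 0.456%, and in H460 6 rose and 5 fell among 29 (20.7% and 17.2%), beside 24.6% and 27.3%. CPT1C, a brain-type relative of CPT1A, rose in RKO (1.36 ± 0.27) and H460 (1.01 ± 0.25) and was at 0.60 ± 0.25 in A549. PPARA, a nuclear receptor that turns on fatty acid oxidation genes, rose in RKO (0.64 ± 0.18) and H460 (1.90 ± 0.13) and was at 0.91 ± 0.30 in A549. SLC1A5, the main glutamine importer, fell in RKO (-0.63 ± 0.15) and H460 (-0.96 ± 0.09) and was at -0.90 ± 0.23 in A549 (adjusted p = 0.106). PPARGC1B, a coactivator of mitochondrial genes, fell in RKO (-1.05 ± 0.20) and H460 (-3.43 ± 0.16) and was at -0.84 ± 0.33 in A549. Its relative PPARGC1A fell in A549 (-1.36 ± 0.33, adjusted p = 0.0953) and rose in H460 (1.45 ± 0.10, adjusted p = 1.7e-07), and was near 0 CPM in RKO.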

How the data were processed

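Libraries of strand-specific poly(A)+ RNA from 3 lines in normoxia or hypoxia were used. The authors trimmed the reads, aligned them to GRCh37/hg19 with TopHat2 2.0.13, dropped alignments of low mapping quality with SAMtools 1.3.1, and counted reads per gene on the reverse strand with HTSeq 0.6.1 in the intersection-nonempty mode. The deposited counts per gene were the input of every test. The authors also deposited RPKM values, which are these counts divided by gene length and library total, and RPKM was used here only to compare levels between genes. Reads of near-identical genes can be lost or split in this counting, and genes on opposite strands are kept apart by it. All deposited sample columns were mapped by name, and 0 were left over. Deposited gene starts were moved by 1 base, since 19 of 36 then met a GENCODE exon start of the same build, against 2 as given.

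The 4 libraries of a line were fitted alone by the quasi-likelihood method of edgeR 4.0.16 (R 4.3.3) with TMM factors and F tests, on genes over 0.5 CPM in at least 2 libraries, with Benjamini-Hochberg adjustment over all of them. All adjusted p values are from edgeR unless another tool is named. A call needed an adjusted p under 0.1 and a fold change over 1.5. One joint edgeR fit of the 12 libraries gave the average effect, the differences between lines (adjusted p under 0.1 only) and the normoxia contrasts. The lists, that of the members included, and the tests were drawn up with earlier results of these data known. Values in each library are given for members called alike in 2 lines and for the highest and lowest called member of a line, and other pathway genes are named where called in at least 2 lines. CPM in the text uses the joint TMM factors. The fits were tested on simulated counts. The fits of single lines recovered 76%, 56% and 89% of 2-fold changes in RKO, A549 and H460. The joint fit called 22% of 2-fold differences for RKO against A549 and 20% for RKO against H460. A missed call thus does not show that no change took place.

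Alternatives were DESeq2 1.42.0, RLE factors, library size only, no filter, a 2 CPM filter, no fold limit, the joint fit, a replicate block and leaving out each library. The replicate numbers come from the sample labels. Same-numbered normoxia and hypoxia libraries deviated together from their group means. The correlation over genes tested was lowest for H460 (0.115), beside 0.339 for RKO and 0.343 for A549. For the members alone, H460 gave 0.033, RKO 0.48 and A549 0.402. Only the replicate block took the numbers as pairs. The main fits left such pairing out, so their calls do not account for it. Promoter windows were searched in Python 3.11.15 on both strands for ACGTG and GCGTG, with CACGTG matches counted within ACGTG.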

Additional observations from a re-analysis of the deposited data

Results flagged for a closer look

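18 members had a hypoxia effect that differed between 2 lines by the test of the difference in the joint fit. Each is given once, at the line pair where the difference was largest among those past the threshold. The value is the log2 effect in the first line minus that in the second, with edgeR's adjusted p. By pair, the shares of members called were 13.9%, 38.9% and 30.6%, beside 14.6%, 37.6% and 36% of all 15595 genes. These shares of members lay near or below those of all genes. The share of all genes called in at least 1 pair was not worked out. In A549 against H460 the difference was 1.34 for CPT2 (adjusted p = 0.00166), 1.07 for ACADM (adjusted p = 0.00132), 1.05 for FH (adjusted p = 0.00168), 0.98 for IDH3A (adjusted p = 0.00455), 0.82 for GOT2 (adjusted p = 0.00918) and -0.97 for IDH3G (adjusted p = 0.00361). These 6 members kept their call with any 1 of the 12 libraries left out, and each was called in H460 and not in A549.

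In RKO against A549 the difference was 0.82 for ACADVL (adjusted p = 0.021), -0.95 for HADH (adjusted p = 0.00971), -0.65 for GLUD1 (adjusted p = 0.054) and -0.58 for ME2 (adjusted p = 0.0804). HADH was at -0.69 in RKO and 0.31 in A549, and GLUD1 at -0.43 and 0.26, so their signs were opposite, although neither was called in A549. GLUD1 lost the call in 5 and ME2 in 8 of the 12 cases with 1 library left out.

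In RKO against H460 the difference was 1.28 for IDH2 (adjusted p = 0.00287), 0.98 for IDH1 (adjusted p = 0.00274), 0.90 for GOT1 (adjusted p = 0.0209), 0.70 for ETFB (adjusted p = 0.0216) and 0.45 for CPT1A (adjusted p = 0.0625). It was -0.78 for SUCLG2 (adjusted p = 0.0662) and -0.78 for ETFDH (adjusted p = 0.0216). ETFDH was at -0.51 in RKO and 0.32 in H460, neither past the fold limit. The value of 1.51 for ME1 (adjusted p = 0.0253) rests on 4 to 9 counts of ME1 in the RKO libraries. SUCLG2 and CPT1A lost the call in 6 cases each, and ETFB and ME1 in 1 each, without H460 hypoxia replicate 2 and without RKO normoxia replicate 1. With library size only the calls of SUCLG2 and ETFDH were lost.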

How the results depend on the processing

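No called member of any comparison changed sign under any alternative run. Without the fold limit, 12 members were lower in RKO, 8 higher and 21 lower in H460, and 7 higher and 17 lower on average. In normoxia 28 and 26 then differed between RKO and A549 and between RKO and H460. Shares of all genes were not worked out without the fold limit. Under the other settings they were not worked out for the average, the differences between lines or normoxia, so such counts have no background here. With library size only, H460 had 0 members higher and 20 lower, beside 14.7% and 40.9% of all genes. The average then had 1 higher and 4 lower. Differences between lines were then called for 24 members in RKO against H460 and 19 in A549 against H460. Without the filter on low counts, 3 members differed between RKO and A549. In A549, 1 member, GOT1, was lower with DESeq2, with the replicate block and with the joint fit. With the replicate block, which takes the label numbers as pairs, 12 members differed between RKO and A549 and 22 between RKO and H460, and IDH2 differed between RKO and A549 in normoxia. The block changed no other call of a member. Over all genes in A549, 316 rose and 65 fell, against 1189 and 723 with the block, 608 and 263 with DESeq2, 957 and 440 in the joint fit, 151 and 41 with library size only, 587 and 213 without the filter, and 169 to 1083 and 68 to 752 with 1 A549 library left out, the most without A549 hypoxia replicate 1. With 1 library left out, 0 to 1 members were lower in A549 (1 without A549 hypoxia replicate 1) and 2 to 9 differed between RKO and A549. GOT2 in RKO also lost its call with library size, the 2 CPM filter and the joint fit, and CS in RKO with library size. Beyond these, the causes were not tested. With 2 replicates a group, and the 27350424 to 41757584 counts a library, members under about 0.5 CPM could not be tested, and a call in 1 line and not in another shows a difference only where the difference was tested.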

Other observations

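Within-library ratios of other pairs, chosen after their values were seen and given with no test, add to the picture of isoenzymes. The ratio of IDH2 to IDH1, the mitochondrial against the cytosolic NADP-dependent enzyme, was 0.596 and 0.575 in normoxic RKO cells and 2.03 and 1.75 in hypoxic ones. In A549 it went from 0.826 and 0.825 to 1.51 and 2.66, and in H460 from 0.0788 and 0.0776 to 0.225 and 0.19. The 3 lines moved the same way without overlap, while IDH1 itself was called only in H460. The ratio of HADHB to HADHA, the subunits of the trifunctional protein, was 0.482 and 0.523 in normoxic and 0.73 and 0.728 in hypoxic H460 cells, and its hypoxia values stood above its normoxia values in RKO and A549 too. The ratio of MDH1 to MDH2 was 0.82 and 0.845 in normoxic and 0.796 and 0.838 in hypoxic H460 cells, with overlap.

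Summed over the 36 members, the share of all counts was 0.5% and 0.487% in normoxic and 0.338% and 0.351% in hypoxic H460 cells. It was 0.438% and 0.416% against 0.407% and 0.403% in RKO and 0.441% and 0.422% against 0.423% and 0.395% in A549. The share depends on the other genes in the library, among them VIM, which stood at 1091 CPM in normoxic and 4606 CPM in hypoxic H460 cells, and the part of such genes in it was not tested.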
